A study of Homo sapiens with 12 samples.

Results

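LINC-named long non-coding RNAs are the transcripts whose approved symbol is LINC and a serial number, and they were followed here across a macrophage-like and an endothelial line exposed to low-density lipoprotein (LDL). All rows of the deposited table of normalised counts whose gene identifier maps to such a symbol were taken, which gave 456 of 20117 rows and 453 symbols, since 3 symbols have 2 rows each. Of the 456, 84 were at 0 in all 12 libraries, 20 had some reads but no group mean of 10, and in 352 the mean of at least 1 group was 10 normalised counts or more. Values are given per gene only for those 352.

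THP-1 is a human monocytic leukaemia line, matured here by PMA, a phorbol ester, into macrophage-like cells, and EA.hy926 is a hybrid of umbilical vein endothelial cells with the lung carcinoma line A549. Each line had 3 control libraries and 3 libraries from dishes given native LDL from donors with CVD, at 100 µg/mL for 24 h. All dishes were kept without serum for those 24 h, THP-1 in RPMI-1640 and EA.hy926 in DMEM, so the medium differs with the line and their effects cannot be told apart. Each line is a single line, no group without PMA was analysed here for THP-1, and p-values measure the spread between libraries labelled as biological replicates.

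Long intergenic non-coding RNAs are transcribed by RNA polymerase II from promoters of their own, are often spliced and polyadenylated, and do not code for a known protein. They tend to be low in copy number and more restricted to 1 cell type than messenger RNAs, and some act on genes close to their own site while others act elsewhere or have no known role. The LINC symbol itself only says that no function or neighbouring gene gave the transcript its name. Of the 352 rows at a mean of 10 or more, 295 carry the type lincRNA in GENCODE 29, 22 are processed transcripts, 17 are antisense, 3 are annotated there as protein-coding and 7 are absent from that release. The median row has 2337 bases of exon and 4 exons in its longest transcript.

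Sequences upstream of the transcripts are shown first, for some of the rows named below for their change in THP-1. The first 3 are among the 12 largest rises and hold a match to at least 1 searched pattern, LINC00996 is another of those rises with no match, and LINC02870 is a fall whose RefSeq start region overlaps that of another falling row. Each is the RefSeq window (GRCh38.p14) from 250 bases before the start to 50 after it, 300 bases long, printed 5′ to 3′ on the strand of the gene, with the matches in capitals. The windows lie at chr21:25431652-25431951 (minus strand), chr13:42812513-42812812 (minus), chr12:68451435-68451734 (minus), chr7:150433404-150433703 (plus) and chr10:132444939-132445238 (plus), in the order printed.
LINC00158: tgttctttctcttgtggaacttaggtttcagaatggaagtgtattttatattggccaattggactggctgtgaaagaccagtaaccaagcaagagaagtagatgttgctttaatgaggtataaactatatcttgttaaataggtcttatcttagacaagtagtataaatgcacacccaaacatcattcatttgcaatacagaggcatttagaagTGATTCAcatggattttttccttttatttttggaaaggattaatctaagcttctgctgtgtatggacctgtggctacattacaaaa
LINC01050: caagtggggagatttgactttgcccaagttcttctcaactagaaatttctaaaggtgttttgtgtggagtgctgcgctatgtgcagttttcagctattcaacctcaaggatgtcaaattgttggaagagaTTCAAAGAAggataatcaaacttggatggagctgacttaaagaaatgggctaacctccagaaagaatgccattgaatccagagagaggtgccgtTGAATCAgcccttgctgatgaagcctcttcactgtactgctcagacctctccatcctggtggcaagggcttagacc
LINC02384: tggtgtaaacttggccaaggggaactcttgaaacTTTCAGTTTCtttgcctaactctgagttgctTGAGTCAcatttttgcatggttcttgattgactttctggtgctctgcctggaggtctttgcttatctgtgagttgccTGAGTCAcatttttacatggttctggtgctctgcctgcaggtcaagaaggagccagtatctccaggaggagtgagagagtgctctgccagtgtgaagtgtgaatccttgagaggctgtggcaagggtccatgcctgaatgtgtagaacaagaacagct
LINC00996: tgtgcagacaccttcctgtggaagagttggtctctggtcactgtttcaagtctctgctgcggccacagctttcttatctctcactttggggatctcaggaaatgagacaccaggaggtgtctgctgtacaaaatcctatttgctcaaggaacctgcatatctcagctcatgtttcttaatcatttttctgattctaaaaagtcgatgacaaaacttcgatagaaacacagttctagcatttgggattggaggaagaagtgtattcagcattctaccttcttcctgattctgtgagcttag
LINC02870: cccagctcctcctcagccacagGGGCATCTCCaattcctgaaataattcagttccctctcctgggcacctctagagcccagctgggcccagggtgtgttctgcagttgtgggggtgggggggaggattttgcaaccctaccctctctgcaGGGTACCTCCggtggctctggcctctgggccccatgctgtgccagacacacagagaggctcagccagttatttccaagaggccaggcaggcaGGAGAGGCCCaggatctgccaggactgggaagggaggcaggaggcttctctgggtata

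4 patterns were searched on both strands, and capitals may join overlapping matches: the AP-1 pattern TGANTCA, the core of the interferon response element GAAANNGAAA, the STAT pattern TTCNNNGAA and a loose NF-kB pattern GGGNNNNNCC. The LINC00158 window held the AP-1 pattern, 36 to 30 bases before the start. In the LINC01050 window the AP-1 pattern lay 26 to 20 bases before the start and the STAT pattern 120 to 112 bases before it. That of LINC02384 held the interferon core and the AP-1 pattern at 2 places, and its RefSeq start lies 179 bases inside the gene as GENCODE 29 has it. LINC02870 and LINC03068, both of which fell, start on opposite strands of chromosome 10 with windows that cover nearly the same bases, the second at chr10:132444933-132445232. This holds for the RefSeq starts, which lie at 862 bases (LINC02870) and -3498 bases (LINC03068) from the GENCODE 29 starts, where minus is upstream, so that in GENCODE 29 the rows start apart.

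Over all 27305 promoter windows the AP-1 pattern was present in 7.76%, and over all 1580 LINC windows in 13.8%. It was found in 13 of 67 windows of LINC rows that rose in THP-1 (19.4%), in 3 of 34 of those that fell (8.82%) and in 7 of 73 of those not called (9.59%). The interferon core stood in 4 of the 67 (5.97%), 0 of the 34 and 3 of the 73 (4.11%), beside 4.3% of all LINC windows and 3.65% of all windows. The STAT pattern stood in 7 of the 67 (10.4%), 0 of the 34 and 5 of the 73 (6.85%), and its share of all LINC windows was likewise 10.4%, beside 7.88% of all windows. The loose NF-kB pattern was in 22 of the 67 (32.8%), 17 of the 34 (50%) and 45 of the 73 (61.6%), beside 58% of all windows and 37.7% of all LINC windows. These are matches to letters, described with no test, and say nothing of which factors were bound.

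Whole reads could be recovered from the deposited values, and the shallowest library, EA.hy926 LDL replicate 2, held 4.32 M reads and the deepest, THP-1 control replicate 2, 11.0 M. One read was worth 0.653 to 1.91 normalised counts, so a row at 10 rests on few reads. The RNA of the signal recognition particle, RN7SL1, took 8.90% to 14.4% of EA.hy926 reads and 1.74% to 3.08% of THP-1 reads, and MALAT1, a nuclear non-coding RNA, rose from 1.57% to 1.73% of THP-1 control reads to 3.15% to 3.35% with LDL. Of 8 macrophage markers, 7 reached a mean of 10 in THP-1 control and 6 with LDL, where MRC1 had gone from a mean of 28.0 to 0.49, CD68 was listed at 0 in both, and their summed level was 0 to 3.29 in EA.hy926. Of 8 endothelial markers, all 8 reached it in EA.hy926 control and 7 with LDL, where KDR went from 14.6 to 7.66, and 4 in THP-1, where CDH5, KDR, TEK and ERG were listed at 0. Of 7 lung epithelial markers listed for the A549 parent, 4 had a row, and EPCAM, CDH1 and NKX2-1 had none. Of these 4, the keratins KRT7, KRT8 and KRT18 were above 10 in EA.hy926, and KRT19 was listed at 0. Their summed level was 10205 to 11069 in control and 12924 to 13099 with LDL, and their part in the EA.hy926 results was not tested. Of 4 fibroblast markers, 2 were above 10 in THP-1, with a summed level of 92.1 to 121 in control and 187 to 230 with LDL, and their part in the THP-1 results below was not tested. In bulk libraries, fewer cells that express a transcript and less of it per cell cannot be told apart.

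LINC rows held a small share of the reads, and the THP-1 LDL libraries stood apart from the others. LINC rows took 0.174% of the reads in each THP-1 control library and 0.207% to 0.221% in the 3 THP-1 LDL libraries, which did not overlap. In EA.hy926 the share was 0.149% to 0.177% in control and 0.144% to 0.168% with LDL, and these overlapped each other. The EA.hy926 control range spanned the THP-1 control libraries, while every EA.hy926 LDL library lay below them. With RN7SL1 reads left out of the total, EA.hy926 with LDL had 0.168% to 0.186%, which spanned the 0.177% to 0.178% of THP-1 control.

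**Figure D1:**
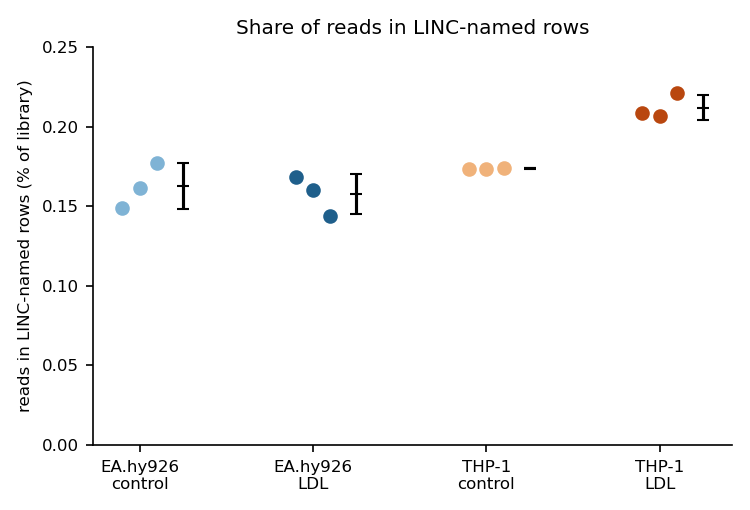
Share of each library's recovered reads that fell in LINC-named rows, in percent; points are libraries, the short bar is the mean and the whiskers 1 SD (n = 3 per group). The THP-1 LDL libraries sit at 0.207% to 0.221%, above the THP-1 control libraries at 0.174%, while the EA.hy926 groups overlap.

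The 2 lines listed largely different LINC transcripts. A mean of 10 was reached by 256 rows in THP-1 and by 202 in EA.hy926, of which 106 reached it in both. Of all rows, 16167 reached it in THP-1, 14202 in EA.hy926 and 12534 in both. Of the THP-1 LINC rows, 143 were at 0 in all 6 EA.hy926 libraries and 7 lay between 0 and 10 there, while 96 of the EA.hy926 LINC rows were at 0 in all 6 THP-1 libraries. By group, 207 LINC rows reached 10 in THP-1 control and 237 in THP-1 with LDL, against 185 and 181 in EA.hy926. Groups filled with zeros are frequent in this table even where the other group is well above 10, so such a group is described as listed at 0, without any fold.

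Levels between genes are compared per kilobase of exon in GENCODE 29. In THP-1 control the highest was LINC01388, at 495 normalised counts per kb, followed by LINC01004 at 188, LINC00477 at 137, LINC02766 at 129 and LINC01176 at 116. LINC01388 had 185, 216 and 218 normalised counts in control and 184, 198 and 223 with LDL, and its groups overlapped. LINC02975, LINC02344 and LINC01374 followed closely at 101, 98.2 and 98.2 per kb. Neither LINC01388 nor LINC01305, at 235, 227 and 241 in control and 254, 197 and 245 with LDL, had an EA.hy926 read.

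In EA.hy926 control the highest was LINC02945, at 734 normalised counts per kb, with 442, 401 and 441 normalised counts in control and 392, 393 and 409 with LDL. LINC00630 followed at 171 per kb, LINC01783 at 168, LINC02595 at 140, LINC01004 at 137, LINC01635 at 127, LINC00973 at 119 and LINC00839 at 118, neighbours that are close in this order. Of these, LINC02945, LINC01783, LINC00973 and LINC00839 were listed at 0 in all 6 THP-1 libraries, as were LINC01234, LINC01583 and LINC01139, which had 325, 256 and 227, then 200, 227 and 281, then 182, 192 and 169 normalised counts in EA.hy926 control. LINC00630 was present in both lines, at 739, 666 and 692 in EA.hy926 control and 101, 103 and 101 in THP-1 control. It overlaps 10 annotated genes on its own strand, MTCO1P19 among them, and LINC02945 overlaps 2 on the opposite strand. Reads may have been split, dropped or mixed there, so the values of both rows are uncertain. LINC00632, from whose site the circular RNA CDR1as derives, had 113, 189 and 77.7 in EA.hy926 control and was listed at 0 in THP-1. It was picked after its values were seen.

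The question put to each line was which of these transcripts changed with LDL. Tests were limma fits on log2(normalised count + 1), two-sided, with Benjamini-Hochberg adjustment over every row whose mean was 10 or more in either group of the line, and a threshold of 0.05. In THP-1, 146 of 256 LINC rows were called, 99 higher and 47 lower with LDL. As a share this is 57% of the LINC rows, beside 64.5% of all 16167 rows tested. LINC rows were called higher in 38.7%, near the 35.5% of all rows, and lower in 18.4%, beside 29% of all rows. Their median log2 change was 0.34, beside 0.08 for all rows. Of the called LINC rows, 72 had a log2 change of 1 or more and 25 had one of -1 or less. Over all 16167 rows tested, 2736 were called with a change of 1 or more and 1765 with one of -1 or less.

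The lean towards higher calls was shared by other kinds of non-coding row and depended in size on the scaling. Antisense-named rows had 252 higher and 53 lower of 520, rows named as divergent transcripts 86 and 17 of 227, and host genes of microRNAs 18 and 7 of 31, while rows that GENCODE 29 types as protein-coding had 4174 higher and 4272 lower of 12565. Under quantile normalization the LINC calls were 85 higher and 61 lower, with a median of 0.06, and that setting moved the median of all rows from 0.08 to -0.08. Calls over all rows were then 4636 higher and 5728 lower. Under each of the scalings tried, LINC, antisense-named and divergent-named rows had more higher than lower calls. The MALAT1 share moved with LDL in the same libraries, and its part in this lean was not tested.

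**Figure D2:**
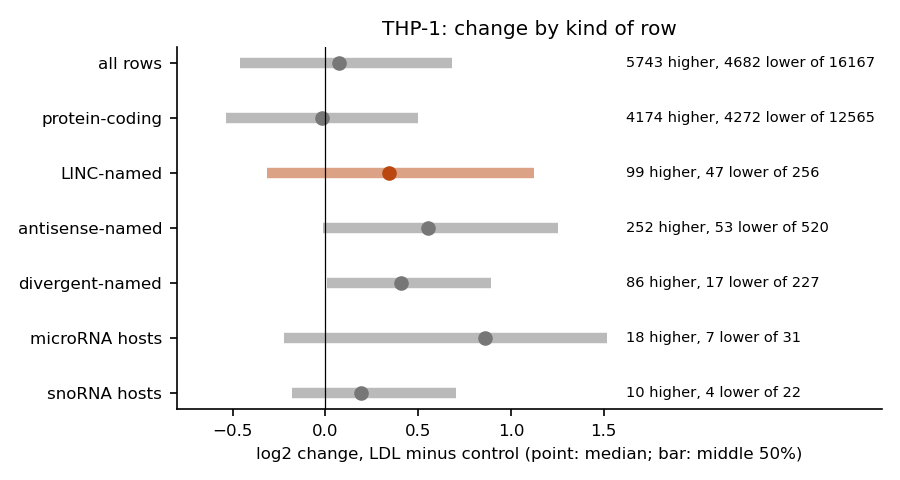
Log2 change with LDL in THP-1 (horizontal axis) for kinds of row; points are medians over the rows tested, bars span the middle 50%, and the counts of called rows stand at the right. LINC-named rows have a median of 0.34, above that of all rows at 0.08 and below that of antisense-named rows at 0.55.

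The largest rises in THP-1 were transcripts near or at 0 in control medium. LINC00158 had 0, 0 and 0.94 normalised counts in control and 124, 95.9 and 101 with LDL. That is 1 read against 249 reads, a ratio of 403 with an exact 95% interval of 71.7 to 15990 that covers counting error only (adjusted p = 6.30e-09). It lies at chr21:25385820-25431701 on the minus strand (GRCh38, GENCODE 29). At 130 kb from it, on the plus strand, lies MIR155HG, the host gene of the inflammatory microRNA miR-155, picked after its values were seen. MIR155HG had 152, 142 and 138 normalised counts in control and 869, 979 and 997 with LDL, a log2 change of 2.71 ± 0.09 (SE, adjusted p = 2.46e-11), and both were listed at 0 in EA.hy926.

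LINC02605 had 0.871, 0 and 0 normalised counts in control and 69.4, 65.7 and 56.9 with LDL, and LINC02562 0, 1.31 and 0, then 53.2, 49.9 and 48.1. The reads rose from 1 to 149 in the first and from 2 to 117 in the second, ratios of 241 (42.6 to 9591) and 94.7 (25.6 to 791). LDL and control libraries did not overlap in any of these rows, which was a condition of the rule that named them.

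LINC00996 had 1.74, 2.61 and 1.88 normalised counts in control and 111, 105 and 131 with LDL, a log2 change of 5.25 ± 0.27 (SE, adjusted p = 2.62e-09). The row lies at chr7:150433654-150448140, beside the GIMAP cluster of GTPases of immune cells. LINC01050, at chr13:42810366-42812562, had 7.84, 5.23 and 2.82 in control and 165, 171 and 179 with LDL, a log2 change of 4.86 ± 0.29 (adjusted p = 1.04e-08). All 3 LDL libraries of both rows were above every control library, which the rule that named them required.

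LINC01181 had 2.61, 1.31 and 0.94 in control and 67.1, 43.4 and 68.5 with LDL (log2 change 4.55 ± 0.36, adjusted p = 1.61e-07). LINC02603, LINC00937 and LINC02384 were listed at 0 in control. With LDL, LINC02603 had 9.25, 64.4 and 26.2 normalised counts, LINC00937 27.7, 18.4 and 21.9, and LINC02384 13.9, 23.7 and 19.0. LINC02603, whose annotated span covers the let-7d hairpin on the other strand, was the least even of these. LINC00937 overlaps 7 other annotated genes, so reads may have been split or dropped there, and its value is uncertain. The remaining named rises were LINC01539 with 1 read in control and 61 with LDL, LINC02041 with 3 and 65, and LINC00836 with 1 and 40, ratios of 98.8, 35.1 and 64.8 with lower limits of 17.1, 11.5 and 11.0.

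**Figure D3:**
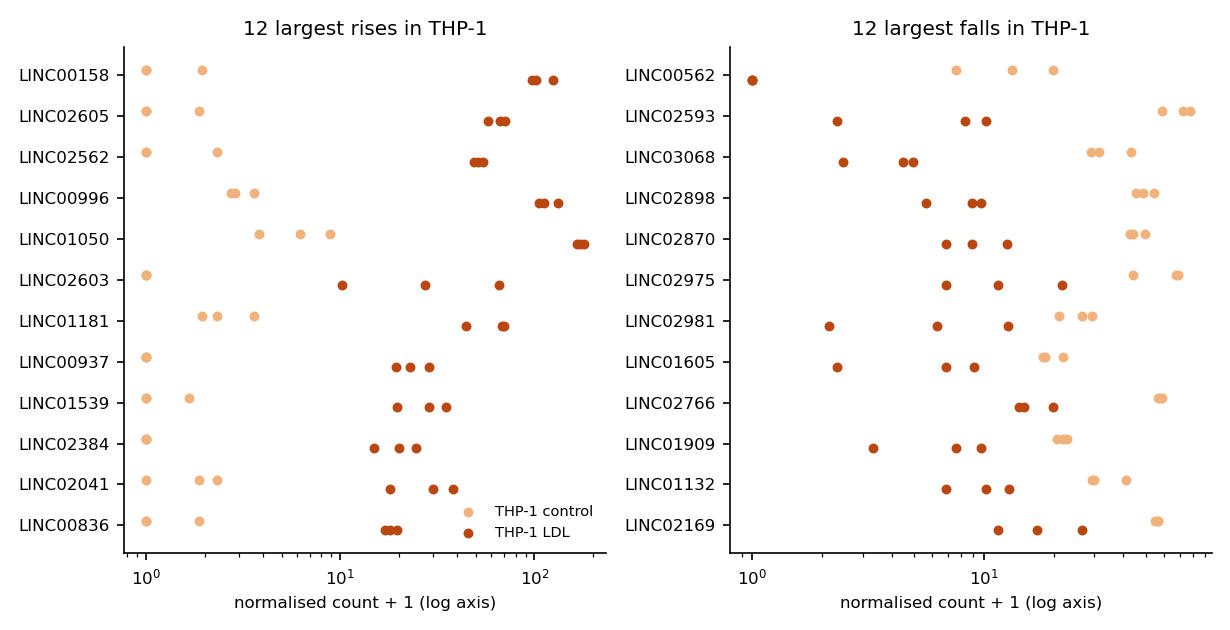
Normalised counts plus 1 on a log axis in the 3 control (light) and 3 LDL (dark) THP-1 libraries, for the 12 largest called rises (left) and the 12 largest called falls (right). Control points of the rises sit between 1, the value of no read, and those of LINC01050, which had 7.84, 5.23 and 2.82 normalised counts, and LINC00562 is the single fall with all LDL libraries there.

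The largest falls were of rows with a mean of 10 or more in control medium, which the filter requires of a row that falls. LINC02593 had 76.6, 57.5 and 71.4 normalised counts in control and 9.25, 1.31 and 7.29 with LDL, a log2 change of -3.57 ± 0.46 (SE, adjusted p = 1.81e-05). LINC03068 and LINC02870, whose RefSeq start regions overlap head to head on chromosome 10, both fell. LINC03068 had 30.5, 28.1 and 42.3 in control and 3.47, 3.94 and 1.46 with LDL, and LINC02870 48.8, 41.8 and 43.2, then 11.6, 7.88 and 5.83. Their log2 changes were -3.17 ± 0.37 and -2.32 ± 0.29 (adjusted p = 7.31e-06 and 1.33e-05). In both rows every LDL library lay below every control library, as the rule that named them required.

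LINC00562 had 12.2, 18.9 and 6.58 in control and was listed at 0 with LDL, and it lies within SUCLA2 on the same strand, so that its reads could be shared with that gene. LINC02898, typed as protein-coding in GENCODE 29, had 53.1, 47.7 and 44.2 in control and 4.62, 7.88 and 8.75 with LDL (log2 change -2.64 ± 0.29, adjusted p = 4.08e-06). LINC02975 fell from 66.2, 43.1 and 67.7 to 20.8, 10.5 and 5.83, and LINC02766 from 57.5, 55.5 and 56.4 to 13.9, 13.1 and 19.0. LINC02981, the shorter row of LINC01605, LINC01909, LINC01132 and LINC02169 completed the 12, with log2 changes of -2.19, -1.88, -1.80, -1.77 and -1.69. In each of these the control libraries lay above all LDL libraries, since groups without overlap were a condition of the rule that named them.

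Several of the most abundant LINC rows also moved. LINC00926, at chr15:57300365-57307769, had 175, 137 and 170 normalised counts in THP-1 control and 1516, 1279.8 and 1521 with LDL, a log2 change of 3.16 ± 0.11 (SE, adjusted p = 4.12e-11). With LDL it was the highest called LINC row in THP-1 by normalised count. LINC00477 rose from 210, 214 and 280 to 1021, 941 and 1059 (2.11 ± 0.11), LINC01010 from 137, 125 and 95.9 to 704, 649 and 696 (2.52 ± 0.12), LINC01176 from 94.9, 90.2 and 98.7 to 266, 300 and 268 (1.54 ± 0.11). LINC01138 rose from 102, 123 and 137 to 334, 323 and 305 (1.41 ± 0.12), in a duplicated stretch of chromosome 1 where it overlaps other annotated genes, so its value is uncertain. All 5 were listed at 0 in every EA.hy926 library, and LINC01374, also listed at 0 there, fell from 39.2, 37.9 and 45.1 to 16.2, 19.7 and 16.04.

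3 more rows are given because of what is known of them and were picked after their values were seen. LINC00607, known from work on endothelial cells, was listed at 0 in all 6 EA.hy926 libraries and had 6.97, 12.4 and 6.58 normalised counts in THP-1 control and 67.1, 72.3 and 45.2 with LDL (log2 change 2.72, adjusted p = 4.37e-06). LINC00461, a transcript of the locus of a miR-9 precursor, fell from 24.4, 16.3 and 22.6 to 6.94, 9.20 and 5.83 (-1.41, adjusted p = 0.00181). LINC00662 rose from a mean of 260 to 1091 in THP-1 (2.06, adjusted p = 2.80e-10), and its EA.hy926 control mean was 274.

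Length and exon number were close between rows that rose and rows that fell. The 99 higher rows had a median of 2376 bases of exon and the 47 lower rows 2642, beside 2584 in the 110 not called, and the median number of exons was 4, 4 and 3. Gene spans had medians of 20.7, 9.76 and 9.09 kb. In control medium the median level was 13.2 normalised counts for rows that rose and 53.5 for those that fell, an order that the filter on the higher of both groups favours. Of the 144 called rows in GENCODE 29, 71 overlapped another annotated gene, 59 of them on the opposite strand. The sources used here do not say whether counting used strand, so in these 59 the reads of both strands may be mixed.

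Neighbouring genes were set beside the LINC rows because the symbols carry no pathway. Each row in GENCODE 29 was paired with the nearest tested protein-coding row. LINC01050 lies 73.8 kb from EPSTI1, an interferon-induced gene, which rose from a mean of 32.7 to 1513 normalised counts (log2 change 5.49 ± 0.09). LINC00996 lies 2.49 kb from GIMAP8, which rose from 25.5 to 410 (3.96 ± 0.15). LINC02562 lies 31.6 kb from PARM1, which rose from 129 to 1628.5 (3.64 ± 0.08). LINC02605 lies 32.0 kb from and head to head with IL7, the cytokine that sustains lymphocytes, which rose from 4.45 to 51.9 (3.32 ± 0.36). All of these neighbours moved in the direction of their LINC row.

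Other pairs that rose together were LINC02041 with RTP4, an interferon-induced chaperone gene (2.42), LINC01010 with SGK1, a kinase of ion transport and survival (2.20), LINC00477 with the transcription factor gene SOX5 (1.98) and LINC01004 with KMT2E (1.12), whose start is 1.14 kb away and head to head. CLEC4E, the receptor Mincle, 136 kb from LINC00937, was listed at 0 in control and had a mean of 87.4 with LDL. Among the falls, LINC02593 lies 2.91 kb head to head from SAMD11, which fell from 82.6 to 11.5 (-2.79 ± 0.29), and LINC01909 5.24 kb from SOCS6, a suppressor of cytokine signalling, which fell from 602 to 188 (-1.68 ± 0.11). LINC02169 lies beside the homeobox gene IRX3 (-1.36), and LINC02898 91.2 kb from PKDCC (-1.87). Each change of a neighbour in this paragraph passed the threshold.

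Not all pairs moved alike. TCF12, 1.08 kb from LINC00926 on the same strand, fell by 0.40 on the log2 scale while LINC00926 rose by 3.16, and SNX10 rose by 0.88 beside LINC02981, which fell. Others had the direction of their LINC row but a small change: MRPL39, 154 kb from LINC00158, rose by 0.53, and MDM1, 0.507 kb from LINC02384, by 0.46. SUCLA2, which contains LINC00562, had a log2 change of -0.13 that was not called (adjusted p = 0.234).

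Over the 144 called LINC rows with a tested neighbour, 115 neighbours were called (79.9%) and 97 of these had the direction of the LINC row (84.3%). For the 8444 called protein-coding rows with their nearest other, these shares were 69% and 63.6%, described with no test. Across the 250 tested LINC rows the log2 changes of row and neighbour had a Pearson r of 0.57 and a Spearman rho of 0.54, and for each of 12559 protein-coding rows with its nearest other the r was 0.27. Among called rows r was 0.64 and rho 0.63 within 50 kb, and r was 0.59 and rho 0.65 beyond it, so the 2 measures order the distances differently. In EA.hy926 the r over 198 LINC rows was 0.079, beside 0.075 over 11414 protein-coding rows with their nearest other. There 1 neighbour was called, PCBP3, which was listed at 0 in control. These are correlations across genes of the same 6 libraries, genes are not independent replicates, and some rows share a neighbour.

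**Figure D4:**
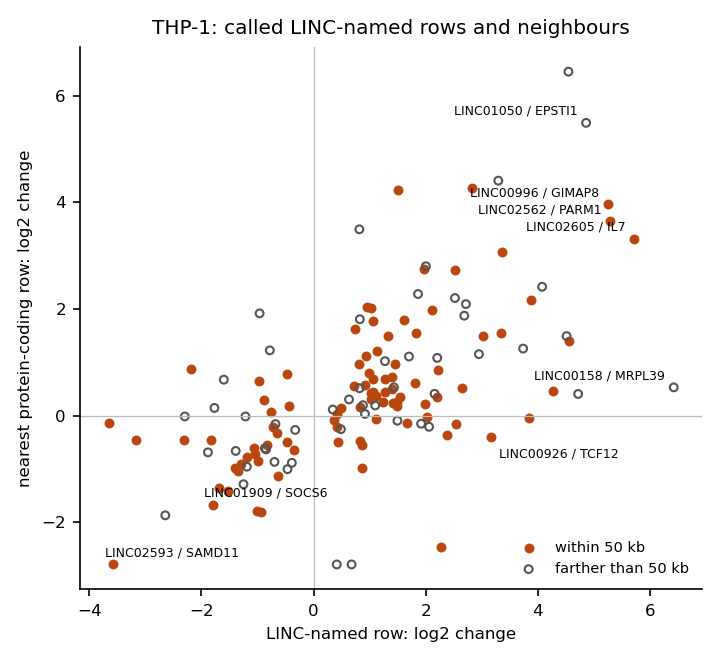
Log2 change with LDL in THP-1 of each called LINC-named row (horizontal) and of its nearest tested protein-coding row (vertical); filled points are pairs within 50 kb and open points pairs farther apart. Of 115 pairs with a called neighbour, 97 share a direction, and LINC00926 with TCF12 is one that does not.

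In EA.hy926 few LINC rows were called, and nearly all calls rest on a group listed at 0. Of 202 LINC rows tested, 10 were called (4.95%), 2 higher (0.99%) and 8 lower (3.96%), beside 2.01% of all 14202 rows, 0.873% higher and 1.13% lower, and 33 had an unadjusted p under 0.05. 9 of the 10 had a group at 0, as did 186 of the 285 calls over all rows. Nearly every tested row of that kind was called, 9 of 9 among LINC rows and 186 of 187 over all rows. Such a row passes the filter only through its higher group, so the share called depends on how many rows are of that kind. Without the rows that have a group at 0, 0 of 193 LINC rows were called by limma, with 22 at an unadjusted p under 0.05. Of all rows only 48 of 14015 were called there, so a count of 0 among 193 does not set the LINC rows apart. edgeR and DESeq2 on the recovered reads, with those rows kept, called 2 higher and 8 lower, and 3 higher and 8 lower. Over all 14202 rows they called 130 higher and 164 lower, and 165 higher and 171 lower.

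LINC02037 and LINC02352 were listed at 0 in EA.hy926 control and had 17.2, 19.1 and 11.2, and 10.6, 24.8 and 6.72 normalised counts with LDL. LINC02246, LINC03011, LINC03065, LINC01977, LINC01002, LINC00571 and LINC01812 were listed at 0 with LDL, and their control values lay between 6.58 and 20.9. None of these means exceeded 16 normalised counts, so each rests on few reads.

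LINC01963 was the sole call in EA.hy926 with reads in both groups, and it fell in both lines. It had 29.6, 32.9 and 37.1 normalised counts in EA.hy926 control and 14.6, 9.55 and 7.84 with LDL, a log2 change of -1.59 ± 0.32 (SE, adjusted p = 0.0173). In THP-1 it had 50.5, 62.1 and 47.9 in control and 22.0, 24.97 and 21.9 with LDL (-1.18 ± 0.21, adjusted p = 0.000279), and the difference between the lines was 0.41 ± 0.38 (adjusted p = 0.398). It lies at chr2:216217045-216220192, 10.7 kb from XRCC5, the gene of the Ku80 subunit in DNA end joining, which fell in THP-1 (-0.78) and changed by -0.21 in EA.hy926 without being called. The EA.hy926 call was lost without EA.hy926 control replicate 2 or 3 (adjusted p = 0.093 and 0.103) or LDL replicate 2 or 3 (0.087 and 0.0503), and when rows with a group at 0 were left out (0.0802).

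LINC01783, the EA.hy926 row with the third highest level per kb, had 391, 283 and 369 in control and 515, 449 and 556 with LDL. The groups did not overlap, and the change of 0.55 ± 0.14 had an adjusted p of 0.0927. LINC02945 changed by -0.10 ± 0.11 (adjusted p = 0.764).

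The difference in LDL response between the lines was taken from an interaction term over the 12 libraries for the 106 LINC rows with a mean of 10 in a group of each line. 38 were called (35.8%), beside 47.1% of 12534 rows. The log2 change was larger in THP-1 in 29 (27.4%, beside 25.2% of all rows) and smaller in 9 (8.49%, beside 21.9%). Under quantile normalization this split was 18 and 11, beside 2709 and 3167 of all 12534 rows.

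LINC02328 had 41.8, 34.0 and 45.1 normalised counts in THP-1 control and 190, 176 and 181 with LDL, while EA.hy926 had 73.5, 43.9 and 54.5, then 41.0, 36.3 and 53.7. Its log2 changes of 2.16 and -0.37 differed by 2.53 ± 0.31 (adjusted p = 2.23e-06), and the EA.hy926 groups overlapped. LINC00513, reported as a regulator of interferon signalling, had 6.10, 3.27 and 6.58 in THP-1 control and an uneven 17.3, 98.5 and 56.9 with LDL. In EA.hy926 it had 12.2, 15.4 and 6.96, then 18.5, 11.5 and 16.8, and the difference was 2.51 ± 0.70 (adjusted p = 0.00661). LINC02236 differed by 2.31 ± 0.44, with 5.23, 3.92 and 5.64 rising to 17.3, 21.0 and 21.9 in THP-1.

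LINC01002 and LINC03011 ranked highest in this direction, but both rest on an EA.hy926 LDL group listed at 0, so no size is given. LINC01002 rose in THP-1 from 13.9, 17.0 and 15.0 to 56.7, 34.2 and 37.9. LINC03011 had 6.97, 11.8 and 11.3, then 2.31, 10.5 and 13.1, and was not called in THP-1 (adjusted p = 0.506). In the other direction LINC02352 ranked first and likewise rests on a group listed at 0. LINC02976 fell in THP-1 from 102, 108 and 111 to 56.7, 42.0 and 29.2, against 18.4, 24.1 and 10.4, then 21.2, 19.1 and 26.9 in EA.hy926, a difference of -1.74 ± 0.42 (adjusted p = 0.00236). CNPY3, a chaperone of Toll-like receptors 1.08 kb from it, fell in THP-1 as well (-1.03). LINC01852, LINC01132 and LINC02985 had differences of -1.75 ± 0.51, -1.67 ± 0.58 and -0.95 ± 0.30, and that of LINC01132 was not called without EA.hy926 LDL replicate 1, the library with its one high value of 33.1 (adjusted p = 0.0706), nor without THP-1 control replicate 2 (0.0661) or THP-1 LDL replicate 3 (0.0634).

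**Figure D5:**
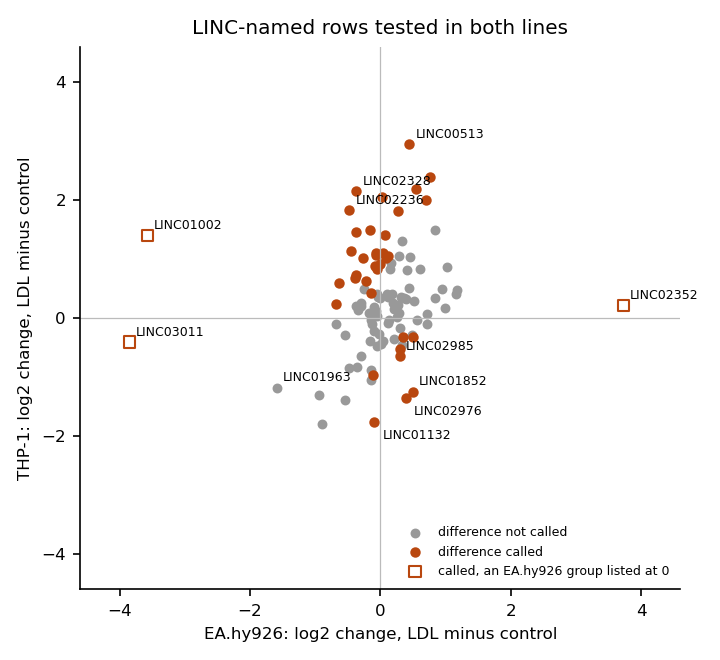
Log2 change with LDL in EA.hy926 (horizontal) and THP-1 (vertical) for the 106 LINC-named rows tested in both lines; coloured points have a called difference, and open squares are called rows with an EA.hy926 group listed at 0. Most rows spread along the THP-1 axis, and LINC01963 is lower with LDL in both lines.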

How the data were processed

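RNA was sequenced from 12 libraries, 3 in each of 4 groups, and all were used. Tools named in the submitters' processing notes are FastQC, MultiQC, STAR, HTSeq and DESeq2, with the build GRCh38; versions, annotation release, strand setting and filters: not given in the sources used here. What the authors deposited is a signal: gene counts over a size factor of each library, of which every value was a whole number of reads within a tolerance of 0.001. Symbols came from a list of gene names (20104 of 20117 rows matched), positions and exon lengths from GENCODE 29 (447 of 456 members), and promoter windows from RefSeq. The authors' annotation release may differ.

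The members, lists, rules and tests were chosen with earlier results of these data known. limma 3.58.1 (R 4.3.3) with an intensity trend was fitted to log2(value + 1) in each line, on rows that averaged 10 or more in either group, and to all 12 libraries for the line difference. A 3 against 3 design cannot give an exact permutation p under 0.1. The fit was tested on simulated data. Named are up to 12 called rises and falls per line whose groups do not overlap, up to 5 line differences each way, the 8 highest levels per kb, the 6 highest rows absent from the other line, and their neighbours; rows picked outside this rule are marked in the text. Motifs were searched on both strands. edgeR 4.0.16 and DESeq2 1.42.0 on the recovered reads, other scalings, pseudocounts and filters, a block on replicate number and each library left out were alternatives. The chi-square between replicates was 1.85 to 18.5 for each degree of freedom, above sampling noise, so none was counted as a duplicate. Within THP-1 control it was 1.85 to 2.36, and within the other groups 3.58 to 18.5.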

Additional observations from a re-analysis of the deposited data

Results flagged for a closer look

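In 12 named rows the log2 change with LDL differed between THP-1 and EA.hy926 by the interaction test of limma over the 12 libraries (adjusted p under the threshold of 0.05). All but LINC02595 and LINC01635 are among the largest called line differences, for which passing this test was a condition. THP-1 minus EA.hy926, the differences were 4.97 for LINC01002, 3.44 for LINC03011, 2.53 for LINC02328, 2.51 for LINC00513, 2.31 for LINC02236, 1.66 for LINC02595 and 1.54 for LINC01635. The differences below 0 were -3.52 for LINC02352, -1.75 for LINC01852, -1.74 for LINC02976, -1.67 for LINC01132 and -0.95 for LINC02985. LINC02595 and LINC01635 were named for their level in EA.hy926: LINC02595 had 10.5, 9.15 and 10.3 normalised counts in THP-1 control and 26.6, 27.6 and 36.5 with LDL, and LINC01635 had 9.58, 11.1 and 8.46, then 42.8, 35.5 and 32.1. The differences of LINC01002 and LINC03011 (above 0) and LINC02352 (below 0) rest on an EA.hy926 group listed at 0, so no size is given.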

How the results depend on the processing

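With a mean of at least 50, the THP-1 calls among LINC rows were 51 higher and 25 lower of 106 tested, the EA.hy926 calls 0 and 0 of 86 (13 at an unadjusted p under 0.05), and the line differences 9 larger and 4 smaller of 34, where fewer rows were tested. Over all rows at that mean, THP-1 had 4563 higher and 4029 lower calls of 11930, and EA.hy926 38 and 7 of 10503. The line difference there had 2534 larger and 2393 smaller of 9287. Quantile normalization gave 18 larger line differences, beside 2709 of all 12534 rows, and the cause was not tested. A fit of all 12 libraries gave 4 higher calls in EA.hy926, beside 217 of all 14202 rows. Leaving out rows with a group at 0 gave 0 higher and 0 lower, beside 41 and 7 of all 14015 rows. With each library left out in turn, EA.hy926 had 1 to 2 higher and 5 to 8 lower calls, THP-1 90 to 102 and 36 to 47, and the line difference 22 to 33 and 7 to 11; the lowest EA.hy926 counts came without LDL replicate 2 (1 higher) and without control replicate 3 (5 lower). edgeR called 97 higher and 53 lower in THP-1, and DESeq2 79 and 39. Over all 16167 rows edgeR called 5187 higher and 5423 lower, and DESeq2 4754 and 4567. Same-numbered replicates had THP-1 correlations of deviations of -0.0971, -0.0888 and 0.0356 and EA.hy926 ones of -0.3261, 0.0127 and -0.2953, so they share a number only. A replicate block gave 100 higher and 48 lower calls for THP-1, 2 and 7 for EA.hy926, and 24 larger and 8 smaller line differences. Over all rows, in the same order, the block gave 5721 and 4656, 84 and 147, and 2777 and 2389. Of 831 alternative values for 44 named changes, 821 kept direction and call, 10 lost the call and 0 reversed. Settings in which a row no longer entered the fit are not among the 831. The EA.hy926 rows with a group at 0 drop out when such rows are left out or the mean must be at least 50. Besides LINC01963 and LINC01132 with a library left out, LINC01963 in EA.hy926 lost its call with the block (adjusted p = 0.0923) or without rows with a group at 0 (0.0802). The line difference of LINC03011 lost its call under quantile normalization (adjusted p = 0.114). Depth limits rows near 10 normalised counts, which rest on few reads.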
